A study of Homo sapiens with 10 samples.

Results

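The clustered protocadherins were followed in 10 RNA sequencing libraries of a human embryonic stem cell line. Members were the protein-coding genes whose GENCODE 44 symbol starts with PCDHA, PCDHB or PCDHG. The annotation lists 53 of them, and 51 of the 55841 gene identifiers in the deposited tables were members, with 15 in the alpha (PCDHA), 15 in the beta (PCDHB) and 21 in the gamma (PCDHG) cluster. PCDHB16 and PCDHGB5 are not analysed here.

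The labels call the line HES9 and give its culture as mTESR1 medium on matrigel. In 5 libraries the cells were the general population, that is, the unsorted culture. The other 5 held the HHH fraction, cells sorted for high levels of the surface antigens EPCAM, GCTM2 and CD9. By their titles, batch 1 holds 2 libraries of either population and batch 2 holds 3. All libraries thus come from 1 line under 1 culture system, with no genetic change or drug in any label. The study's text names WA09 for its cells and the deposit's design text mentions a protein kinase C inhibitor, and neither point is resolved here.

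Protocadherins are cell surface proteins of the cadherin superfamily. In neurons, each cell switches on a small set of the clustered genes, and the proteins form combinations that bind the same combination on other membranes, which lets a neuron tell its own branches from those of others. Each alpha and gamma transcript joins 1 large variable exon, read from its own promoter and encoding the extracellular and transmembrane part, to small constant exons shared by the whole cluster, which encode the common end of the cytoplasmic tail. Beta genes have a single exon and no constant part. Most of the promoters carry a conserved element with the core CGCT, close to sites where CTCF and cohesin act in promoter choice.

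All members lie on the + strand of chromosome 5 in GRCh38. The alpha constant exons cover chr5:140978949-140979007, chr5:140982475-140982563 and chr5:141009627-141012347, which is 2869 bases in all. The gamma constant exons cover chr5:141494807-141494865, chr5:141505393-141505481 and chr5:141510947-141512975, or 2177 bases. A read from these exons can be counted for every gene of its cluster, so the counts of alpha members, and those of gamma members, are not independent of each other.

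RefSeq promoter windows (GRCh38.p14, 250 bases before to 50 after the annotated start) were found for 45 of the 51 members. Stretches of 30 bases around the CGCT core, in capitals, are shown for members that the results below turn on, and for PCDHA7 and PCDHGA3, which had counts near the lowest of their clusters. They are written 5′ to 3′ on the + strand.

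PCDHA4 (chr5:140806977-140807006): tttggagccacatgatgtCGCTctttacca
PCDHA6 (chr5:140827895-140827924): tttggagccgcatgatgtCGCTgtctacca
PCDHA7 (chr5:140834170-140834199): atgatggccacatgatgtCGCTctttaccg
PCDHA11 (chr5:140868881-140868910): gttttaggcgcaaggtgtCGCTctttactt
PCDHA12 (chr5:140875242-140875271): taatcagtcacatgatgtCGCTctacactc
PCDHAC1 (chr5:140926218-140926247): aagcctagaaggtgtggtCGCTcacgttca
PCDHB2 (chr5:141094542-141094571): ggaagagacgcggggtggCGCTgcagcctt
PCDHB3 (chr5:141100391-141100420): caagcgaacgcatggtggCGCTgttgacta
PCDHB15 (chr5:141245312-141245341): aaagacaacgcatggtggCGCTgcaggcta
PCDHGA3 (chr5:141343765-141343794): ggttaggcctcttagtgtCGCTgttgacca
PCDHGB4 (chr5:141387615-141387644): agtgctgactctgggcgcCGCTgttggcca
PCDHGA10 (chr5:141412929-141412958): tcttaggactctgagcgcCGCTgttcacct
PCDHGC3 (chr5:141475878-141475907): ggctgggactctgtgtgcCGCTgtcggcca

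The letters before the core differed by cluster. GTCGCT was found in 11 of 13 alpha windows, 2 of 13 beta windows and 6 of 19 gamma windows. GTGGCGCT was found in 12 beta windows and in no alpha or gamma window, and GCCGCTGT in 10 gamma windows and in no alpha or beta window. Searched on both strands, GTCGCT lies in 7.97%, GTGGCGCT in 1.15% and GCCGCTGT in 1.63% of all 35116 promoter windows of the RefSeq table. The bare CGCT, which every one of these longer words contains, lies in 70.0% of them. The words were chosen after the windows had been read, and a match is a description of letters only. PCDHA7 and PCDHA4 share GTCGCT and the letters around it, yet their measured levels differed, as given next.

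Total counts ran from 47242595 to 78503395 per library, and member counts are given as CPM, the count relative to the library size after TMM scaling in edgeR. The shared reads dominated the alpha cluster. PCDHA5, PCDHA7 and PCDHA13 had 1096 to 1657 counts in every library, and within a library the largest of them exceeded the smallest by 3 to 16 counts, less than the square root of the smallest, 33.1 to 40.6. In each library the smallest alpha count was therefore used as an upper bound on the reads of the constant exons. The count of a member above it was taken as its excess, which reflects its bases outside the constant exons, its variable exon among them. Over the 10 libraries this bound averaged 69.9% of the count of PCDHA11, the member it covered least, and more than 90% of the counts of 10 of the 15 alpha members.

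PCDHA11 had the largest alpha excess in every library. It was 12.2 and 9.93 CPM in the general and 12.4 and 13.0 CPM in the HHH libraries of batch 1. In batch 2 it was 9.90, 9.32 and 9.42 CPM in the general and 10.3, 9.67 and 8.68 CPM in the HHH libraries. The populations overlapped in batch 2, and in batch 1 both HHH values lay above both general values.

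PCDHA6, PCDHAC1, PCDHA12 and PCDHA4 followed, with 16.0%, 15.7%, 12% and 11% of the summed alpha excess beside 25.9% for PCDHA11. These 5 members together took 80.6% of it. PCDHAC1 is a C-type gene, a class that in neurons is read more uniformly than the others. The other C-type alpha gene, PCDHAC2, took 5.56%. At the other end, 6 members took less than 1.5% each, among them PCDHA5, PCDHA7 and PCDHA13, which set the bound and whose own variable exons could not be told from 0 by this measure. Per kilobase of implied length outside the constant exons, the mean excess ran from 4.39 CPM for PCDHA11 through 2.58 for PCDHA6 and 2.06 for PCDHA12 to 0.0241 for PCDHA7.

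Over the whole gene, the level per length (RPKM, CPM per kilobase of the gene length that the deposited RPKM values imply) was 6.60 ± 0.576 (SD, n = 10) for PCDHA11. It was 5.70 for PCDHA6 and 5.55 for PCDHA12, the next in order, and 2.66 ± 0.198 for PCDHA9, the lowest. PCDHA9 has an implied length of 9563 bases, against a median of 5374 bases over the alpha members.

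**Figure D1:**
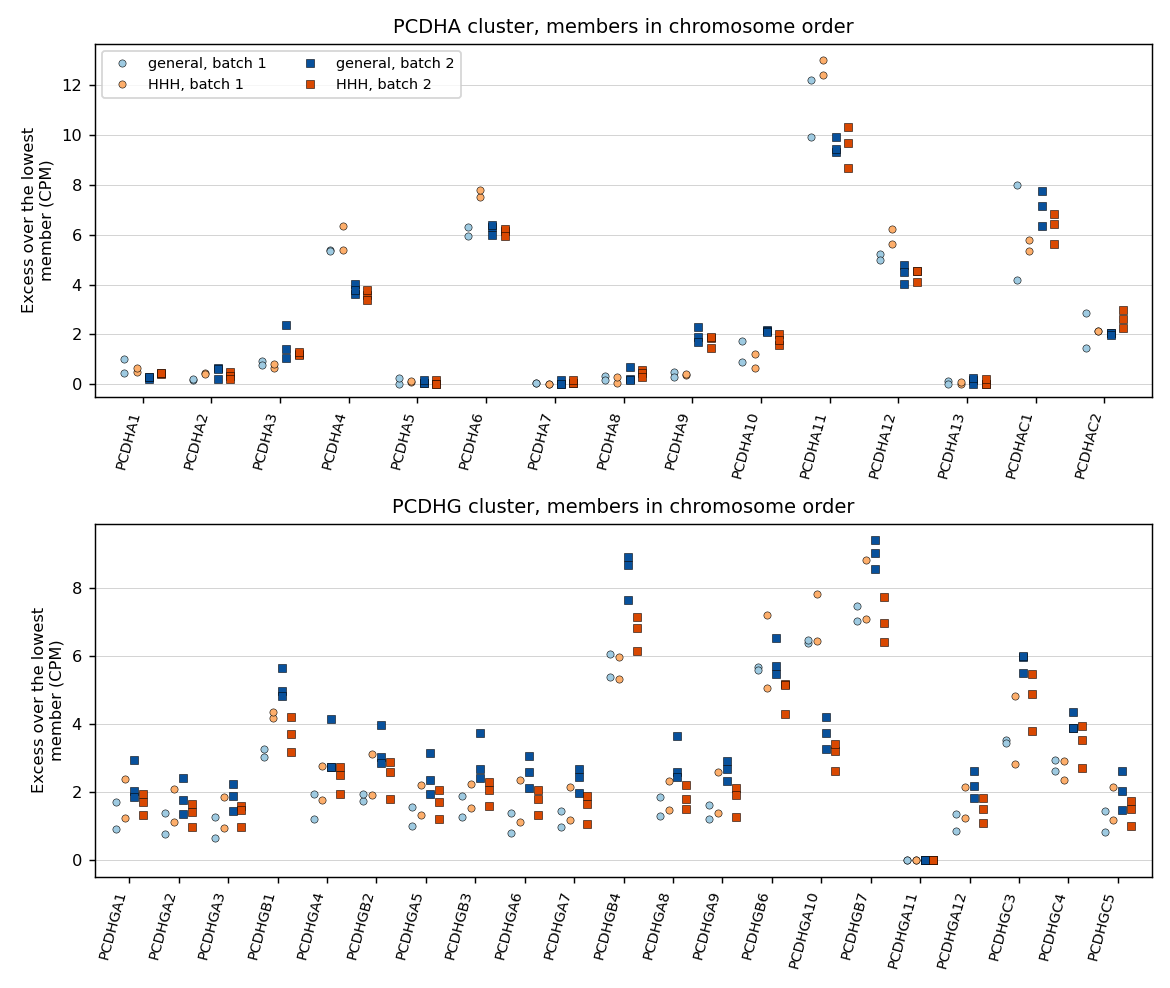
Excess of each PCDHA (top) and PCDHG (bottom) member over the lowest member of its cluster, in CPM, with 1 point per library in chromosome order. PCDHA11, PCDHA6, PCDHAC1, PCDHA12 and PCDHA4 stand above the other alpha members, while in the gamma cluster PCDHGB7, PCDHGB4, PCDHGB6 and PCDHGA10 lead, and every gamma member but PCDHGA11 holds the gap to it.

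In the gamma cluster, PCDHGA11 had the smallest count in all 10 libraries, from 419 to 976. The next member, PCDHGA3 or PCDHGA2, lay 41 to 134 counts higher. Its implied length of 3936 bases is short beside the gamma median of 4605 bases, and whether its gene model lacks part of the shared exons was not tested. The excess over it is therefore less exact than in the alpha cluster, and a bound from the second smallest member was used beside it.

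PCDHGB7 had the largest gamma excess on average, 12.9% of the sum, and PCDHGB4 followed with 11.2%, PCDHGB6 with 9.19% and PCDHGA10 with 8.03%. The leading 5 members took 48.8% of the summed gamma excess, beside 80.6% for the leading 5 alpha members, but every gamma share holds the gap to PCDHGA11. With the second smallest member as the bound, the leading 5 took 67.4% (81.9% in the alpha cluster), PCDHGB7 19.2%, PCDHGB4 16.1%, PCDHGB6 12.5% and PCDHGA10 10.1%. Of the C-type genes, PCDHGC3 took 7.47%, PCDHGC4 5.39% and PCDHGC5 2.50% over the smallest member, and 9.53%, 5.69% and 0.533% over the second smallest. PCDHGC4 is a member linked to neuron survival. Over the whole gene the levels per length were 4.39 ± 0.736 RPKM for PCDHGB7, 4.18 ± 0.832 for PCDHGB4 and 3.90 for PCDHGB6 (SD, n = 10), the 3 highest. The lowest was PCDHGA12 with 2.95 ± 0.637. C-type levels were 3.60 ± 0.779 for PCDHGC3, 3.39 ± 0.703 for PCDHGC4 and 3.00 ± 0.642 for PCDHGC5, and these gamma levels differed between neighbours in the order by less than their SD.

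The beta cluster rested on 1 gene. PCDHB2 had 30.1 and 30.8 CPM in the general and 33.7 and 28.8 CPM in the HHH libraries of batch 1. In batch 2 the values were 30.1, 28.5 and 29.3 CPM in the general and 24.6, 24.7 and 25.9 CPM in the HHH libraries, with every HHH value below every general one. PCDHB2 took 50.8% to 65.8% of all beta counts in a library, and at 10.5 ± 1.05 RPKM (SD, n = 10) it had the highest level per length of all clustered protocadherins. In GENCODE 44, 43.9% of its exon bases are shared with annotation outside the clusters, and reads from there may enter its count. Its implied length is 2736 bases, beside 4098 in GENCODE 44, so how much of this overlap was counted is not known.

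PCDHB15 followed with 2.05 ± 0.516 RPKM and PCDHB14 with 0.844 ± 0.0912 RPKM. PCDHB1, a divergent gene at the start of the cluster, had 0.077 ± 0.0371 RPKM, the lowest of the 14 members with an implied length. PCDHB6, which had a count of 0 in 1 library and so no implied length, was lower still in CPM, with means of 0.0606 in the general and 0.0417 in the HHH libraries beside 0.226 and 0.164 for PCDHB1. It had 0 to 8 counts per library and was the single member that the filter on low counts removed, which left 50 members tested. The order of the beta levels runs from PCDHB2 over PCDHB15 to PCDHB14 with gaps larger than the SD of either neighbour.

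PCDHB2 was followed across the libraries by MFAP4, an extracellular matrix glycoprotein gene, with a Pearson r of 0.967 over the 10 values of log2 CPM, and by the pseudogenes DPY19L1P2 with 0.937 and RAB11FIP1P1 with 0.920. These were the 3 highest of 23502 genes outside the clusters, and the points share the batch and the library scaling.

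HHH was compared with the general population by the quasi-likelihood test of edgeR over all 23552 tested genes, and a gene was called when its adjusted p was under 0.05 and its fold over 1.5. With both batches in the fit and batch as a term, none of the 50 members was called, where 2.98% of all tested genes were. No member had an adjusted p under 0.05 in that fit, and DESeq2 and limma with voom also called 0. An unadjusted p under 0.05 was found for 20 of the 50 members, beside 20.9% of all tested genes, with the 21 gamma counts sharing reads. The labels do not say that replicates were separate cultures, so p-values measure the spread between these libraries, which may be technical. In bulk RNA, fewer cells that express a gene and less RNA per cell cannot be told apart.

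Alpha members lay close to 0 in that comparison, with log2 fold changes (HHH minus general) of -0.02 to 0.04 for the 15 members and a smallest adjusted p of 0.811. PCDHA11 had 0.04 (SE 0.0776, edgeR adjusted p = 0.818), PCDHAC1 -0.02 (SE 0.0820, adjusted p = 0.932) and PCDHAC2 0.04 (SE 0.0811, adjusted p = 0.836). Gamma members had -0.26 to -0.20 with a median of -0.23 and a smallest adjusted p of 0.130. Among beta members the range was wider, -0.57 to 0.11 with a median of -0.19, and the smallest adjusted p was 0.141. PCDHB2 had -0.12 (SE 0.0751, edgeR adjusted p = 0.386), and the value of PCDHB15 was -0.23 (SE 0.139, adjusted p = 0.377). The median over all tested genes was 0.02.

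**Figure D2:**
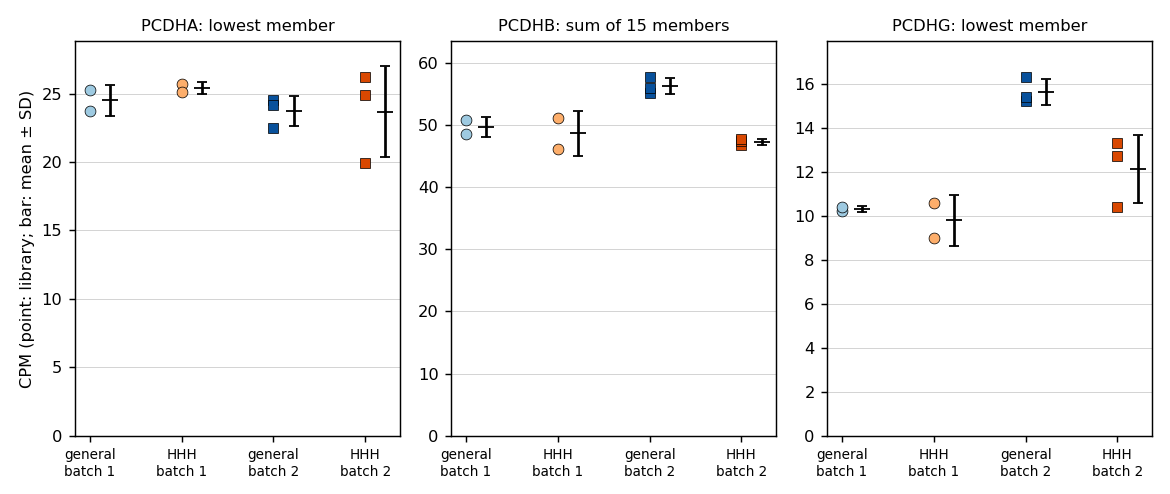
Lowest alpha member, sum of the 15 beta members and lowest gamma member in CPM, with 1 point per library and the mean ± SD beside it (n = 2 per population in batch 1 and n = 3 in batch 2). The gamma value is highest in the general libraries of batch 2, from 15.2 to 16.3, and the alpha value is of like size in all 4 groups.

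Within batch 1, the lowest gamma member, PCDHGA11, measured 10.2 and 10.4 CPM in the general libraries. In the HHH libraries of that batch it measured 8.98 and 10.6 CPM. The populations overlapped, its difference was -0.07 on the log2 scale (SE 0.136, edgeR adjusted p = 0.830), and edgeR called no member of any cluster in batch 1, where 1.79% of all tested genes were called. DESeq2 and limma with voom called 0 as well, and 0 members had an unadjusted p under 0.05, beside 16.9% of all tested genes. For 6 alpha members, PCDHA11, PCDHA6, PCDHA12 and PCDHA4 among them, both HHH libraries of batch 1 lay above both general ones, an order found in 22.5% of all tested genes, and all of those differences missed the test, with a smallest alpha adjusted p of 0.667. These counts share the reads of the constant exons and are not 6 separate measurements.

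In batch 2 the gamma cluster separated the populations. PCDHGA11 measured 15.2, 15.4 and 16.3 CPM in the general libraries and 12.7, 13.3 and 10.4 CPM in the HHH libraries. Every HHH value lay below every general value, and the same held for all 21 gamma members and for 18.2% of all tested genes. The log2 fold changes ran from -0.41 to -0.34 with a median of -0.37, and 10 of the 21 gamma members passed at an adjusted p under 0.05 while staying under 1.5-fold. Genes lower in HHH at that p made up 5.65% of all tested genes in batch 2, and genes that passed in either direction 9.47%. Because the shared reads enter all 21 counts, these are not 21 independent measurements.

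PCDHGB1 had the smallest adjusted p, with a difference of -0.39 on the log2 scale (SE 0.102, edgeR adjusted p = 0.0300), and fell in HHH, as did PCDHGB4 with -0.35 (adjusted p = 0.0337) and PCDHGB7 with -0.36 (adjusted p = 0.0378). The C-type genes missed the threshold, PCDHGC3 with -0.35 (adjusted p = 0.0712), PCDHGC4 with -0.34 (0.0623) and PCDHGC5 with -0.38 (0.0558). With the replicate number as a block, which pairs the libraries, all 21 gamma members passed with adjusted p of 0.0200 to 0.0384, where 15.6% of all genes passed, 8.95% as lower in HHH. Without HHH replicate 3 of batch 2, the library with the lowest gamma values of that batch, none passed, the smallest adjusted p was 0.102 and the median was -0.28. Leaving out any single general library of batch 2 also left none past the threshold, with smallest adjusted p of 0.0529 to 0.134, and leaving out HHH replicate 1 or 2 of batch 2 left 1 or 2. Leaving out a batch 1 library left 5 for either general and 21 for either HHH library. A batch 1 library enters through the filter, the scaling and the shared estimate of the spread.

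Measured by the excess alone, 1 gamma member passed in batch 2, PCDHGB1 with -0.48 (SE 0.134, edgeR adjusted p = 0.0403). The 20 gamma members tested that way had a median of -0.47, and 5.58% of all genes in that fit passed as lower in HHH. With the replicate block, 5 of the 20 passed, beside 8.80% of all genes, and 3 of them were called, beside 5.33% of all genes in either direction. These were PCDHGA8 with -0.65 (SE 0.186, edgeR adjusted p = 0.0318), PCDHGA7 with -0.64 (adjusted p = 0.0421) and PCDHGA9 with -0.59 (adjusted p = 0.0427). Their excess holds the gap to PCDHGA11. Over the second smallest member it averaged 0.709 CPM for PCDHGA8, 0.338 for PCDHGA7 and 0.595 for PCDHGA9 (10 libraries). With the second smallest member as the bound and no block, 4 of 17 were called, PCDHGA5, PCDHGA7, PCDHGA8 and PCDHGA12, where 3.91% of all genes were. PCDHGB1 had -0.50 (edgeR adjusted p = 0.0524) in that fit. The 4 calls rest on small remainders. Over the 10 libraries, PCDHGA5 averaged 0.447 CPM and PCDHGA12 0.258 CPM above that bound. Their whole counts averaged 15.5 and 15.2 CPM in the general libraries. No alpha member passed in batch 2 in either measure, and the alpha counts ran from -0.04 to 0.03 on the log2 scale.

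Beta members in batch 2 missed the threshold, and edgeR called no member of any cluster there, where 3.88% of all tested genes were called. DESeq2 and limma with voom also called 0, and 26 of the 50 members had an unadjusted p under 0.05, beside 27.2% of all tested genes, with the 21 gamma counts sharing reads. Of the 15 beta members, 7 had all HHH values below all general values, among them PCDHB2, PCDHB3 and PCDHB4, beside 18.2% of all tested genes. PCDHB3 measured 3.26, 3.60 and 3.85 CPM in the general and 2.37, 2.85 and 2.33 CPM in the HHH libraries, a difference of -0.50 on the log2 scale (SE 0.153, edgeR adjusted p = 0.0529). PCDHB4 had -0.78 (SE 0.257, adjusted p = 0.0686), PCDHB9 -0.52 (adjusted p = 0.0784) and PCDHB2 -0.22 (adjusted p = 0.0982). With the replicate block, PCDHB3, PCDHB4, PCDHB9 and PCDHB10 passed, with adjusted p of 0.0260, 0.0408, 0.0396 and 0.0410, and PCDHB4 was called, beside 5.35% of all genes.

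The edgeR test of the difference between the batches called no member, where 0.773% of all tested genes were called, and 5 members had an unadjusted p under 0.05, beside 18.9% of all tested genes. DESeq2 and limma with voom called 0. The HHH change in batch 2 minus that in batch 1 had a median of -0.38 for gamma, -0.31 for beta and -0.06 for alpha members, and the smallest adjusted p of a member was 0.172, for PCDHGB1 with -0.46 (SE 0.164, edgeR). With the replicate block, under which batch 1 holds 1 pair (replicate 2), the gamma changes in batch 1 were -0.24 to -0.05 with a median of -0.21, and the gamma median of the difference between batches became -0.18 (smallest adjusted p = 0.489). In that pair the summed gamma counts were 274 CPM in the general and 240 CPM in the HHH library. A smaller change in batch 1 than in batch 2 was therefore not shown.

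**Figure D3:**
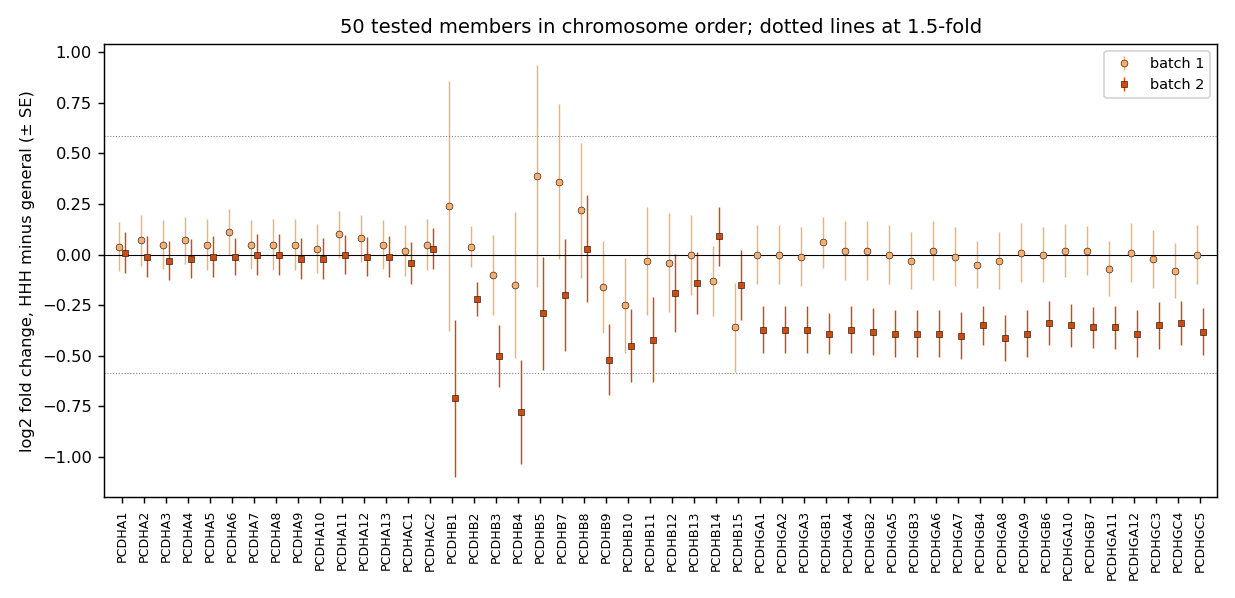
Log2 fold change of HHH against general for the 50 tested members in chromosome order, in batch 1 (circles) and batch 2 (squares), with standard errors and dotted lines at 1.5-fold. Gamma members sit together between -0.41 and -0.34 in batch 2 and near 0 in batch 1, alpha members near 0 in both, and beta members spread with wide errors.

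Member levels were also compared between the batches. Batch 2 minus batch 1, with the population as the other term, gave 3 called members, all in the beta cluster, where 21.5% of all tested genes were called. At an adjusted p under 0.05 with any fold, 20 of 21 gamma members, 7 of 14 tested beta members and no alpha member were higher in batch 2, against 47.9% of all tested genes in either direction. The gamma counts share reads and are not separate measurements. These differences are relative to TMM scaling, since with library size only the median over all genes was 0.34 in place of 0.0, and the gamma median 0.78 in place of 0.45. The batch cannot be told apart here from whatever differed between the cultures or runs, and the share of counts on identifiers without a GENCODE 44 match was 16.3% to 20.3% in batch 1 and 7.44% to 10.6% in batch 2.

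PCDHB5 moved most. It had 10 and 12 counts in the general and 16 and 5 in the HHH libraries of batch 1, and 63, 60 and 103 counts in the general and 64, 73 and 45 in the HHH libraries of batch 2. All batch 2 values lay above all batch 1 values in both populations, and the difference was 2.53 on the log2 scale (SE 0.299, edgeR adjusted p = 1.54e-05). PCDHB4 had 0.76 (SE 0.232, adjusted p = 0.0151) and PCDHB1 1.01 (SE 0.365, adjusted p = 0.0335), on counts of 13 to 61 and 3 to 21. PCDHB1 lost its adjusted p under 0.05 without either general library of batch 1, without HHH replicate 3 of batch 1, without HHH replicate 2 of batch 2, and without general replicate 1 or 3 of batch 2. PCDHB4 lost it without either general library of batch 1.

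**Figure D4:**
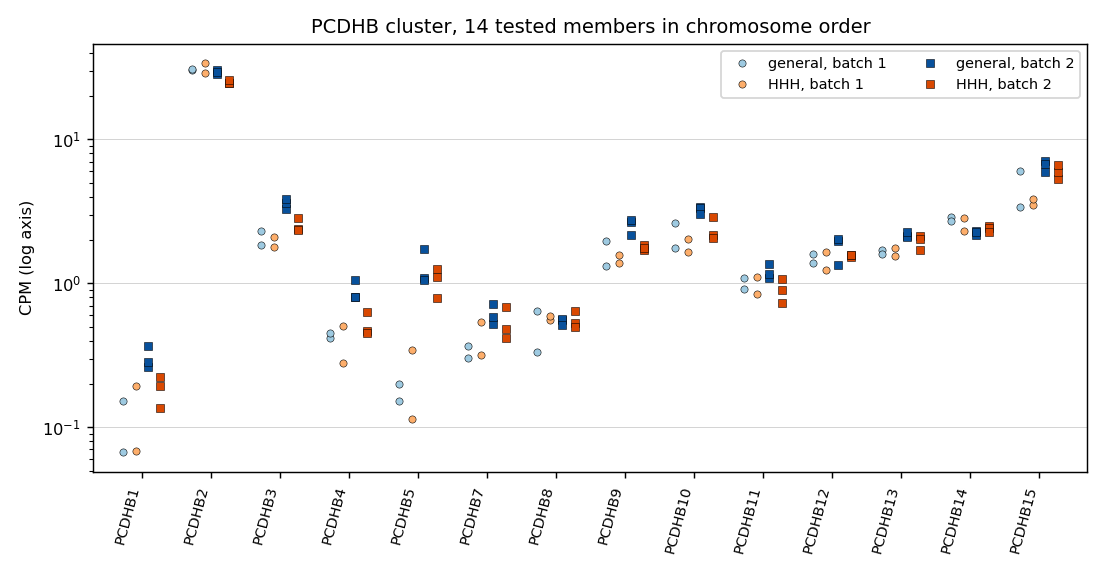
CPM of the 14 tested beta members on a log axis, with 1 point per library in chromosome order. PCDHB2 sits between 24.6 and 33.7 in every library, and PCDHB5 between 0.114 and 0.343 in batch 1 and between 0.796 and 1.72 in batch 2.

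Gamma members rose together from batch 1 to batch 2, with log2 fold changes of 0.27 to 0.48 for the 20 that passed, and PCDHGA10 stood apart with 0.03. In the excess, PCDHGA10 measured 6.39 and 6.47 CPM in the general and 6.45 and 7.83 CPM in the HHH libraries of batch 1. In batch 2 it measured 3.73, 3.26 and 4.20 CPM in the general and 3.19, 3.42 and 2.60 CPM in the HHH libraries. All batch 2 values lay below all batch 1 values, and the excess fell by 1.0 on the log2 scale (SE 0.126, edgeR adjusted p = 2.71e-05). With the second smallest member as the bound the difference was -1.60 on the log2 scale (SE 0.110, adjusted p = 9.83e-08).

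Alpha counts hid differences of the same kind. On the counts, the 15 alpha members had log2 fold changes of -0.16 to 0.01 between batches and none passed, but in the excess 7 of the 12 tested passed and 5 were called, PCDHA9, PCDHA3 and PCDHA10 higher and PCDHA4 and PCDHA1 lower. PCDHA1 is uncertain, since 48.6% of its annotated bases are shared with annotation outside the clusters. Over all genes in this fit, 47.9% passed and 21.5% were called. PCDHA9 had an excess of 18 to 33 counts in the 4 libraries of batch 1 and 82 to 132 counts in the 6 of batch 2, a difference of 2.20 on the log2 scale (SE 0.192, edgeR adjusted p = 9.78e-07). Its implied length outside the constant exons is 6694 bases, beside 2364 to 3178 bases for the other alpha members. Which part of the PCDHA9 gene model moved was not tested.

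PCDHA4 went the other way. Its excess was 5.39 and 5.33 CPM in the general and 5.40 and 6.34 CPM in the HHH libraries of batch 1, and 3.39 to 4.03 CPM in the 6 libraries of batch 2, with no overlap between batches. The excess fell by 0.60 on the log2 scale (SE 0.100, edgeR adjusted p = 0.000249). PCDHA11 and PCDHA12 fell by 0.31 each (adjusted p = 0.0110 and 0.0189), and for PCDHA12 the batches did not overlap.

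**Figure D5:**
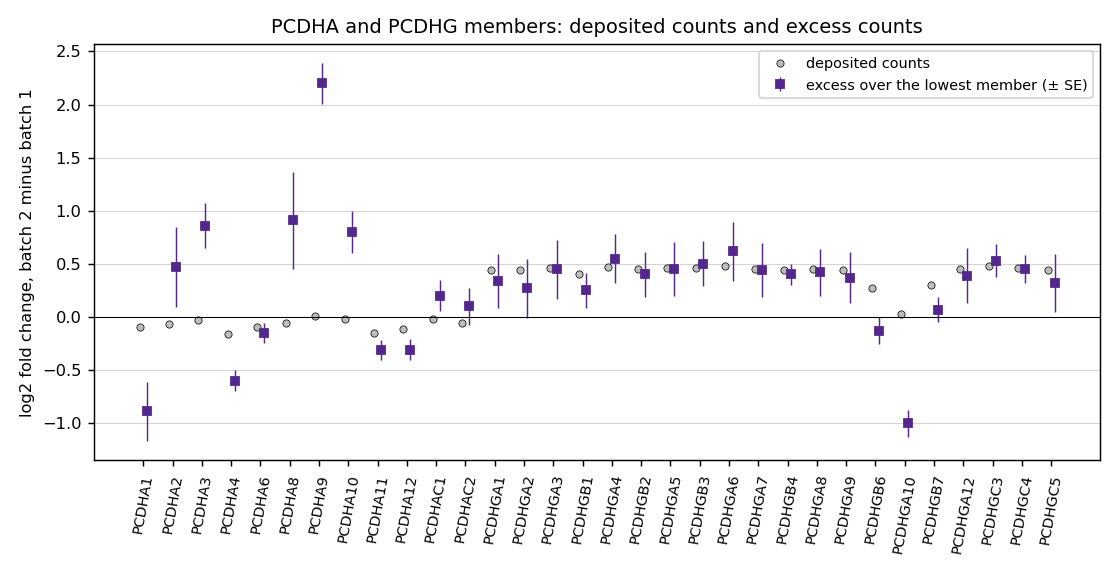
Log2 fold change of batch 2 against batch 1 for alpha and gamma members, from the counts (circles) and from the excess over the lowest member of the cluster (squares, ± SE). Counts of alpha members lie near 0 for every gene, while the excess runs from -0.89 for PCDHA1 to 2.20 for PCDHA9, and PCDHGA10 has -1.0 in the gamma cluster.

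Counts of a cluster moved together across the libraries more than the excess did. Over the 10 libraries, the median Pearson r between pairs was 0.955 for 105 pairs of alpha counts and 0.0405 for the 55 pairs of the 11 alpha members with an excess of at least 10 counts in every library. For gamma the medians were 0.991 for 210 pairs of counts and 0.867 for 190 pairs of excess. Among 12 beta members with at least 10 counts in every library, the median over 66 pairs was 0.351. These pairs share libraries and batches, the counts share reads, and the gamma excess shares its distance from PCDHGA11.

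The other protocadherins, which stand alone in the genome, were tested in 10 genes. Of these, 4 were called lower in HHH over both batches and none higher, where 2.98% of all tested genes were called. PCDH20 is not analysed here. PCDH7 had 12.9 ± 5.99 CPM in the general and 4.19 ± 1.32 CPM in the HHH libraries (SD, n = 5), a difference of -1.57 on the log2 scale (SE 0.139, edgeR adjusted p = 9.66e-06), and PCDH8, known as paraxial protocadherin, had -2.27 (SE 0.276, adjusted p = 0.000178). PCDH18 had -0.68 (adjusted p = 0.00143) and PCDH9 -0.89 (adjusted p = 0.0115). The list median was -0.55, beside 0.02 over all tested genes.

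Promoter choice factors did not pass in that comparison. None of 19 genes for CTCF, cohesin, DNA methyltransferases and chromatin factors had an adjusted p under 0.05. None was called, where 2.98% of all tested genes were, and the list median was -0.03. CTCF measured 83.5 ± 16.3 CPM in the general and 89.6 ± 9.69 CPM in the HHH libraries (SD, n = 5; log2 fold change 0.11, SE 0.0801, edgeR adjusted p = 0.442). DNMT3B, the methyltransferase that marks clustered protocadherin promoters in the embryo, had 1220 ± 247 and 1180 ± 125 CPM. SMCHD1, which takes part in silencing of the clusters, had a difference of -0.04 on the log2 scale (SE 0.0703, adjusted p = 0.811).

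Partners and processing enzymes were tested in 20 genes, and 1 was called, where 2.98% of all tested genes were. RET, a receptor kinase that is phosphorylated together with protocadherins, had 13.5 ± 4.71 CPM in the general and 7.49 ± 1.16 CPM in the HHH libraries (SD, n = 5), a difference of -0.79 on the log2 scale (SE 0.112, edgeR adjusted p = 0.000596). ADAM10, the protease that sheds the extracellular part, had -0.07 (adjusted p = 0.616), and the WAVE complex gene NCKAP1 had -0.12 (adjusted p = 0.456). The list median was -0.06.

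Markers were checked beside these results. All 8 pluripotency markers were expressed, POU5F1 at 516 ± 30.9 CPM in the general and 570 ± 72.6 CPM in the HHH libraries (SD, n = 5). At an adjusted p under 0.05, 1 passed higher and 1 lower in HHH over both batches. These were NANOG with 0.44 on the log2 scale (edgeR adjusted p = 0.00572) and SOX2 with -0.26 (adjusted p = 0.0375). None of the 8 was called, where 2.98% of all tested genes were. In batch 2, 3 passed higher and none lower, beside 9.47% of all tested genes in either direction. Of 10 neuron markers, 7 averaged at least 1 CPM and 1 (ELAVL4) was at 0 in every library. Their sum was 189 to 226 CPM in the general and 158 to 264 CPM in the HHH libraries. Within batch 2 it was 189 to 201 and 158 to 177 CPM. There 2 of the 9 tested, STMN2 and ELAVL3, were called lower and none higher, where 3.88% of all tested genes were called. In batch 1, STMN2 was called lower and RBFOX3 higher, with 0.87 on the log2 scale (edgeR adjusted p = 0.0389), where 1.79% of all tested genes were called. TUBB3 made up most of the sum, with 175 and 166 CPM, and had -0.23 in batch 2 (adjusted p = 0.159). Of 8 neural progenitor markers, LHX5 alone averaged at least 1 CPM. Over both batches 2 of the 3 tested progenitor markers were called lower, where 2.98% of all tested genes were called. LHX5 had -5.57 on the log2 scale (edgeR adjusted p = 1.63e-06) and SOX1 -1.39 (adjusted p = 0.0391). PAX6 had -0.15 (adjusted p = 0.665). The sum of the 8 progenitor markers was 4.43 to 12.7 CPM in the general and 1.18 to 1.46 CPM in the HHH libraries, and in batch 2 it was 7.80 to 12.7 and 1.18 to 1.34 CPM. The lower HHH sum rests on LHX5, with means of 6.82 and 0.145 CPM. Of 8 mesenchyme markers, 4 were tested, with COL1A1 called lower and THY1, which pluripotent cells also carry, called higher over both batches. The sum of the 8 was 271 to 290 CPM in the general and 296 to 353 CPM in the HHH libraries. The higher HHH sum rests on THY1, with means of 141 and 217 CPM. COL1A2 had 105 and 86.5 CPM, COL1A1 24.2 and 12.8 CPM, and PDGFRB 11.8 and 12.8 CPM. No endoderm marker averaged 1 CPM, and their sum was 0.350 to 2.20 and 0.636 to 3.54 CPM. The part of these cell types in the gamma values of batch 2 was not tested.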

How the data were processed

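RNA was sequenced from 10 libraries, and groups, batches and replicate numbers were taken from the sample titles. The authors deposited whole-number counts per Ensembl gene without normalization. They also deposited a table of log2 RPKM values after TMM scaling, treated here as a score because a batch term had been removed from it. Per the labels, the submitters' processing notes name CASAVA 1.8.2, R 3.2.2, limma 3.26.9 and the build GRCh37. The aligner and counter are not given in the sources used here. Symbols and coordinates come from GENCODE 44 (GRCh38), which matched 88.5% of the identifiers.

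Genes were kept by filterByExpr of edgeR 4.0.16 (R 4.3.3, minimum count 10), scaled by TMM and tested by the two-sided quasi-likelihood test with Benjamini-Hochberg adjustment. The fit over both batches had batch and population as terms, and within-batch values and their difference came from a fit with 1 mean per population and batch. The log2 CPM values used for correlations of counts had a prior count of 2. For the excess, a constant was added to the CPM before the log2 instead, so the r values of counts and of excess rest on different transforms. Gene lengths were recovered from the deposited RPKM values and the counts, up to a common factor, and came out within 0.05 base of a whole number for all 27641 genes counted in every library. Among those with a GENCODE 44 match, 32.1% equalled its exon length. For most genes the counts thus rest on another gene model than the one that gave the coordinates, constant exons and shared bases here. On simulated data with known changes the test was checked first. DESeq2 1.42.0, limma 3.58.1 with voom, other scalings and filters, the replicate block and libraries left out in turn were tried as alternatives.

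In batch 2, deviations of same-numbered HHH and general libraries correlated by 0.113 to 0.239 in the 3 pairs and those of different numbers by -0.126 to -0.00512. Deviations from the mean of 3 libraries sum to 0, so the negative values largely mirror the positive ones. The numbers may therefore pair the libraries, which the labels do not say. The reported fits left the libraries unpaired, and the replicate block was an alternative. Batch 1 has 1 such pair, and with 2 libraries a group its correlation can only mirror that of other numbers (0.113 or -0.113), so it does not bear on the pairing. Counting error alone limits low counts, and totals were 47242595 to 78503395. Members, lists and tests were chosen with earlier results of these data known. Genes named were the C-type members, the 3 highest and the lowest member of each cluster by level per length, all called members, those that moved most between batches, and the 3 genes outside the clusters most like the highest member. PCDHA3, PCDHA4, PCDHA10, PCDHGA5, PCDHGA7, PCDHGA8, PCDHGA9, PCDHGA10, PCDHGA11, PCDHB3, PCDHB9 and PCDHGB1 were added after their values were seen.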

Additional observations from a re-analysis of the deposited data

Results flagged for a closer look

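In the HHH group, replicate 3 of batch 2 lay far below the other 4 libraries for 4 alpha members. It had 25.8 CPM of PCDHA6, where the others had 31.1 to 33.3, and 24.0 CPM of PCDHA12, where the others had 29.5 to 31.4. For PCDHAC1 the value was 25.5 CPM beside 30.9 to 32.6, and for PCDHAC2 it was 22.1 CPM beside 27.2 to 28.9. The gap to the nearest library was 0.713 to 0.757 of the whole range. Chance gives such a library in about 1 of 20 groups, 38 groups of 19 members were examined, and the 4 alpha counts share the reads of the constant exons. The same library had the lowest gamma values of batch 2, as given with the gamma results.

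Reads were also counted for 4 pseudogenes of the clusters, which are not members and entered no comparison above. PCDHA14 had a median of 89.5 counts, with 44 to 147 per library, PCDHGB8P 31.5 (21 to 54), PCDHB18P 11.5 (7 to 16) and PCDHB17P 8.0 (4 to 17), all above the 3 counts that a count of 0 allows. PCDHA14 was higher in batch 2 by 0.80 on the log2 scale (SE 0.151, edgeR adjusted p = 0.000695).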

How the results depend on the processing

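Called members numbered 0 for HHH against general over both batches and in batch 2, and 3 for batch 2 against batch 1. Over both batches, 1 member was called with the bound from the second smallest member, an alternative chosen after seeing the data. In batch 2, 1 was called with library size only, with the replicate block and with the batch fitted alone, 4 with the second smallest bound, 4 with the constant-exon bound and replicate block together, also added later, and 10 with no limit on the fold. Gamma members passing in batch 2 at any fold numbered 10 in the reported fit, 6 with RLE size factors, 2 with library size only, 15 with limma and voom, and 21 with DESeq2 or the replicate block. Over both batches PCDHB10 passed with the block (-0.51, adjusted p = 0.0442) and no member was called.

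Between batches, 3 called members became 6 with upper quartile scaling, 29 with library size only, 5 with no filter or with limma and voom, 9 with the constant-exon bound, 14 with the second smallest bound, 24 in the general libraries only, 1 at an adjusted p under 0.01 and 27 with no limit on the fold. With 1 library left out, the counts were 0 to 1 over both batches, 0 to 1 in batch 2 and 1 to 5 between batches, with 1 without general replicate 2 of batch 1 and 5 without HHH replicate 3 of batch 1 or HHH replicate 1 of batch 2. Batch 1 and the difference between batches gave 0 under every alternative run. The beta median over both batches was -0.19 and became -0.30 in the deposited log2 values. The causes were not tested. Low beta counts limit what could be detected, and shared reads limit what alpha and gamma counts can show.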
